A study of Homo sapiens with 6 samples.

Results

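The genes described here are 39 members of the autophagy and lysosome pathway, taken as the rows of the deposited expression table whose gene symbol stood on a list made by function. All 39 were found among the 30015 genes of the table, and all 39 were among the 15251 genes tested. The list holds 17 genes of the autophagy machinery (4 receptors, 4 ATG8 family genes and 9 core genes), 2 transcription factors, and 20 lysosomal genes (4 membrane proteins, 11 hydrolases and cofactors, and 5 subunits of the proton pump). RNA was sequenced from HMV-II cells, an established line from a human mucosal melanoma of the vagina, in 3 Vector libraries and 3 shEZH2 libraries. Vector cells carried a scrambled control shRNA and shEZH2 cells an shRNA against EZH2, the histone methyltransferase of Polycomb repressive complex 2. Both were stable lines made with lentivirus and selected with puromycin, neither received a further treatment, and the labels give the genotype of Vector as WT. The table heads the shEZH2 columns sh1, so a single shRNA stands behind the group. The sources do not say whether the libraries of a group came from separate cultures, so p-values measure only the spread between these libraries, which may be technical.

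Autophagy encloses cytoplasmic material in a double membrane, the autophagosome, and delivers it to the lysosome for breakdown. A kinase complex with ULK1 and a lipid kinase complex with BECN1 start the membrane, and a conjugation system with ATG5, ATG7, ATG12 and ATG16L1 attaches ATG8 family proteins to it. Receptors such as SQSTM1, also called p62, bind ubiquitinated cargo on one side and ATG8 proteins on the other, and are themselves degraded with the cargo. The lysosome is kept acid by the V-ATPase proton pump, holds hydrolases that digest protein, lipid and sugar chains, and is bounded by glycosylated membrane proteins. TFEB and TFE3, relatives of the melanocyte factor MITF, bind a CACGTG-type element in the promoters of many lysosomal genes. In pigment cells, melanosomes are made by a related pathway and share proteins such as CD63 with lysosomes.

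Libraries held 13400290 to 19128939 reads counted on genes. EZH2 fell from 483, 437 and 552 normalized counts in the Vector libraries to 237, 247 and 225 in the shEZH2 libraries, a log2 fold change of -1.04 ± 0.15 (SE, limma adjusted p = 0.014). All 10 melanoma markers examined averaged 10 or more normalized counts, and 1 of 13 markers of other cell types did, the matrix protein gene LUM. The summed level of those other markers was 143 to 185 in Vector and 244 to 303 in shEZH2. Most of it came from LUM, at 120 to 166 in Vector and 209 to 275 in shEZH2. No other marker of the 13 averaged above 9.29. The part of these markers in the results was not tested. In RNA from whole cultures, a change in the mix of cells and a change in RNA per cell cannot be told apart. Vector replicate 2 stood apart. The mean chi-square per gene against the other Vector libraries was 117 to 119, while Vector replicates 1 and 3 differed from each other by 2.14. Between shEZH2 libraries it was 6.49 to 23.9, highest between replicates 1 and 2. By exon length, the median log2 deviation of Vector replicate 2 ran from -0.49 in the shortest quintile of genes to 0.37 in the longest. For shEZH2 replicate 1 the deviation ran the other way, from 0.24 in the shortest quintile to -0.19 in the longest. Values without Vector replicate 2 are therefore given for many genes below, though not for every one.

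Among the 39 members, the receptors SQSTM1 and TAX1BP1 fell and the transcription factor TFEB rose, while 36 were not called. A gene was called, by the threshold of the study, where its limma p before adjustment was under 0.05 and the groups differed by more than 1.5-fold in either direction. By this rule 7.55% of all genes tested were called higher and 7.07% lower, so 1 and 2 of 39 are no larger shares than those of the table as a whole. With the p adjusted over all genes tested, TAX1BP1 alone of the members passed 0.05, where 4.12% of all genes did. With Vector replicate 2 left out, 10 of 39 members passed, where 19.1% of all genes did. The 3 libraries of one group lay wholly outside the range of the other in 11 of 39 members (28.2%), where 34.8% of all genes did so. Both genes called lower were receptors, a group of 4 in which every member had its groups apart, and 0 of 20 lysosomal genes were called.

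**Figure D1:**
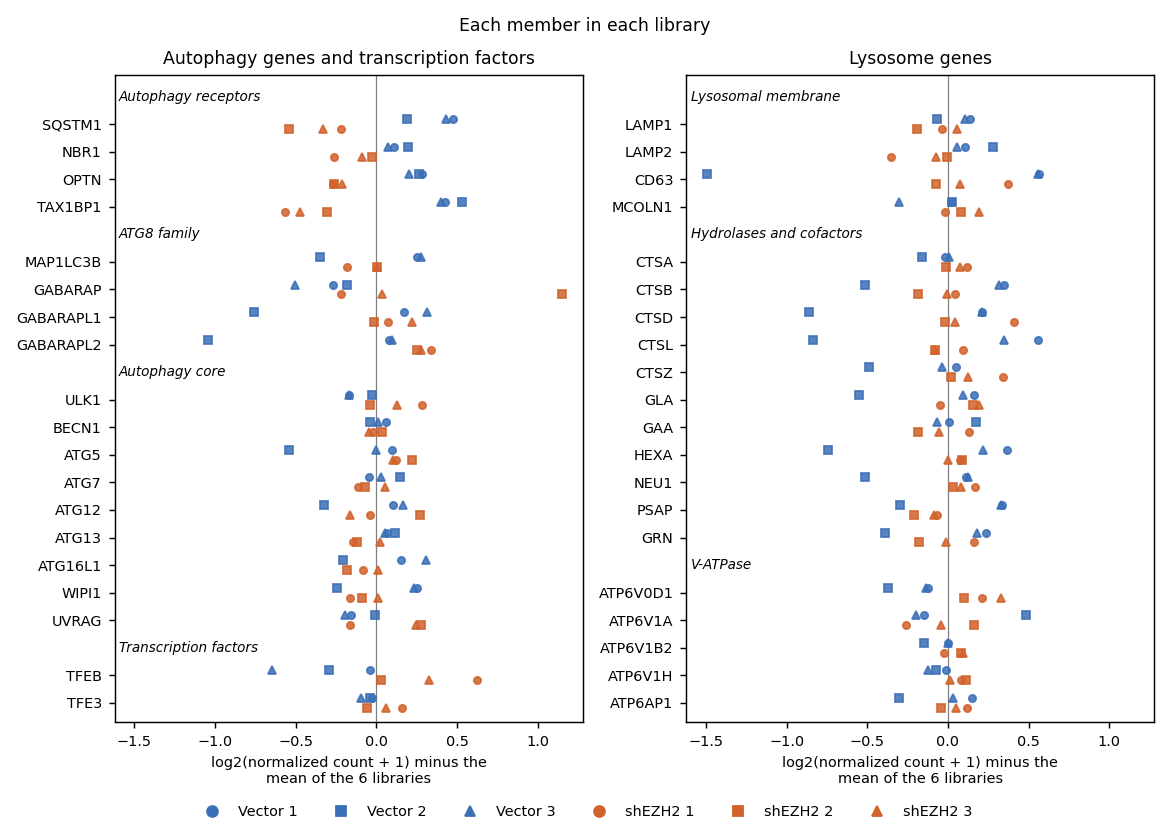
Normalized count of each of the 39 members in each library, as a log2 difference from the member's mean over the 6 libraries, grouped by role, with Vector and shEZH2 libraries marked apart. The 4 receptors separate with Vector above shEZH2, and Vector replicate 2 is the lowest of the 6 libraries in 10 of 11 hydrolases and cofactors.

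SQSTM1, the best known cargo receptor and a partner of KEAP1 in the oxidative stress response, was the receptor with the highest level per length. It had 31606, 25906 and 30607 normalized counts in the Vector libraries and 19468, 15579.5 and 18048 in the shEZH2 libraries. Every shEZH2 library lay below every Vector library. The mean went from 29373 ± 3044 to 17698 ± 1968 (SD, n = 3 each), and the level decreased by 39.8% on the fitted scale. Its log2 fold change was -0.73 ± 0.17 (SE), with a 95% interval from -1.14 to -0.33. The limma p was 0.0034 before and 0.063 after adjustment over all genes tested. Without Vector replicate 2 the log2 fold change was -0.82, and over 15 alternative settings it ran from -0.82 to -0.64 and was called in each, with adjusted p-values from 0.00018 to 0.26. SQSTM1 (ENSG00000161011) lies on chromosome 5 from 179806398 to 179838078 in GRCh38, plus strand, and overlaps MRNIP by 2946 bases and MGAT4B by 555 bases, both on the other strand. MRNIP had a mean of 1207 normalized counts and MGAT4B 5092. Whether reads were counted by strand is not given in the sources used here, so reads of such overlaps cannot be told apart.

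TAX1BP1, a receptor for ubiquitinated cargo that also restrains inflammatory signaling, showed the largest difference of the 39 members. It had 4410, 4751 and 4342 normalized counts in Vector and 2218, 2656 and 2369 in shEZH2. The highest shEZH2 library was well below the lowest Vector library. The means were 4501 ± 219 and 2414 ± 223 (SD, n = 3 each), and the level decreased by 46.5%. Its log2 fold change was -0.90 ± 0.13 (SE), with a 95% interval from -1.21 to -0.59 and a limma adjusted p of 0.018. The 15 alternative settings gave -0.97 to -0.76, all called, with adjusted p-values from 2.5e-07 to 0.15. The gene (ENSG00000106052) lies on chromosome 7 from 27739331 to 27844564 in GRCh38, plus strand, and shares 13992 bases with JAZF1 on the other strand, a gene with a mean of 255 normalized counts.

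OPTN, a receptor for damaged mitochondria and bacteria, had 574, 568 and 544 normalized counts in Vector and 391, 394 and 407 in shEZH2. Its groups were also apart, and the libraries within each group were close together. A log2 fold change of -0.50 ± 0.12 (SE, limma adjusted p = 0.067) fell short of the fold threshold and was not called, also without Vector replicate 2 (-0.49, adjusted p = 0.010). NBR1, a receptor that acts together with SQSTM1, had 3416, 3630 and 3334 in Vector against 2647, 3110 and 2982 in shEZH2. The log2 fold change was -0.25 ± 0.13 (SE, limma adjusted p = 0.29), the smallest of the 4, and it was not called although the groups did not overlap. For the 4 receptors summed, the libraries had 34856 to 40006 normalized counts in Vector and 21739 to 24724 in shEZH2, most of them from SQSTM1. The median log2 fold change of these 4 receptors was -0.62 (-0.66 without Vector replicate 2), beside 0.04 for all genes tested. Other cargo receptors, given with the wider lists below, did not all fall. For each receptor a two-sided exact permutation test, which has 20 ways of dividing the 6 libraries, gave p = 0.1, the smallest it can give.

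The sequences before the start sites of the receptors called lower are shown because these are the members that fell. They are RefSeq sequences of GRCh38.p14, plus strand, 250 bases ending just before a listed start. The SQSTM1 stretch (chr5:179806143-179806392) ends next to the listed start nearest the start in the table and is 75.2% G or C. Only that start is shown for SQSTM1, and which start these cells used was not tested. For TAX1BP1 both listed starts are given, the first (chr7:27739123-27739372) with 31.2% and the second (chr7:27739912-27740161) with 58.8% G or C. None of the 3 holds CACGTG, the element described further on. Over all 9 listed promoters of the 4 receptors, 0 of the 4 genes had it.
SQSTM1: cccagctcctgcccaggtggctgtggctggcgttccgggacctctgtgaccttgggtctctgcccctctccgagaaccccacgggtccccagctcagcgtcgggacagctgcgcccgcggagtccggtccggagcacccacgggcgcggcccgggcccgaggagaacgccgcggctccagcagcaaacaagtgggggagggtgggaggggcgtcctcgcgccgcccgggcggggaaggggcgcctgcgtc
TAX1BP1 first start: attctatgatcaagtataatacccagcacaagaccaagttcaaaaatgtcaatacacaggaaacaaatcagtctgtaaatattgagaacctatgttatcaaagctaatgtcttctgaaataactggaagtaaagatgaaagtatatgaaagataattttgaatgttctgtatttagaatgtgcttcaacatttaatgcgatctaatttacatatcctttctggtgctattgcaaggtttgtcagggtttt
TAX1BP1 second start: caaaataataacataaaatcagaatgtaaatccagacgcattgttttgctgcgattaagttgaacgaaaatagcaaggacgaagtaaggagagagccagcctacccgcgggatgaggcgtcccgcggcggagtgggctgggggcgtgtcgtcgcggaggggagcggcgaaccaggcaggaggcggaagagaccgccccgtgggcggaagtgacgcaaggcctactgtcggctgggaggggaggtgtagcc

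ATG8 proteins coat the growing membrane and anchor the receptors. None of the 4 genes was called, and their median log2 fold change was 0.38 with all libraries and 0.03 without Vector replicate 2. MAP1LC3B, which encodes the LC3B protein used as the standard marker of autophagosomes, had the highest level per length of the family. It had 5208, 3426 and 5293 normalized counts in Vector and 3861, 4376 and 4388 in shEZH2, and Vector replicate 2 alone brought the groups into overlap. Over all libraries the log2 fold change was -0.12 ± 0.20 (SE, limma adjusted p = 0.74). Without that library it was -0.32 (adjusted p = 0.033), which is short of the fold threshold. MAP1LC3B shares 8148 bases with FBXO31 on the other strand, a gene with a mean of 897 normalized counts. GABARAPL2 had 973, 446 and 987 in Vector against 1165, 1099 and 1115 in shEZH2. Its groups did not overlap, but the log2 fold change of 0.58 ± 0.30 (SE, limma adjusted p = 0.29) became 0.20 without Vector replicate 2. GABARAPL1 gave 0.18 ± 0.28 (SE) with all libraries and -0.15 without Vector replicate 2. GABARAP itself was barely represented, with 19 to 24 normalized counts in Vector and 24 to 63 in shEZH2, and its log2 fold change of 0.64 ± 0.39 (SE, limma adjusted p = 0.35) was 0.23 without shEZH2 replicate 2.

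The 9 core genes of initiation, nucleation and conjugation were all uncalled, with log2 fold changes from -0.17 to 0.30 and a median of -0.02. WIPI1, which binds the lipid made by the BECN1 complex and recruits the conjugation machinery, had the highest level per length among them. It had 1976, 1402 and 1950 normalized counts in Vector and 1484, 1564 and 1670 in shEZH2, with a log2 fold change of -0.16 ± 0.17 (SE). Without Vector replicate 2 the value was -0.32 (limma adjusted p = 0.039), again under the fold threshold. BECN1, the scaffold of the lipid kinase complex, was the closest to no difference, at 1425, 1330 and 1376 in Vector and 1348, 1403 and 1323 in shEZH2. This is a log2 fold change of -0.02 ± 0.12 (SE). BECN1 shares 8966 bases with PSME3 on the other strand, a gene with a mean of 4083 normalized counts, and reads of this overlap cannot be told apart. The groups were apart in ATG5 (higher in shEZH2, log2 fold change 0.30) and ATG13 (lower, -0.16), and overlapped in the other 7. Without Vector replicate 2, ATG5 stood at 0.10, and ATG16L1 went from -0.17 to -0.32. For 7 of the 9 core genes the 95% interval lay within 1.5-fold in both directions, so a change as large as the threshold fell outside it. This was so for 3460 of the 15251 genes tested.

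TFEB, a master regulator of lysosomal genes, was called higher at a very low level. It had 50.2, 41.9 and 32.6 normalized counts in Vector and 79.98, 52.7 and 64.9 in shEZH2, so the lowest shEZH2 library stood only just above the highest Vector library. The log2 fold change was 0.65 ± 0.26 (SE), with a 95% interval from 0.06 to 1.25 and a limma p of 0.036 (adjusted p = 0.18). The call was lost without Vector replicate 3 (0.49), without shEZH2 replicate 1 (0.50) and without shEZH2 replicate 3 (0.65, limma adjusted p = 0.41). TFE3, its relative, was expressed far more, with 1502, 1491 and 1436 in Vector and 1715, 1475 and 1595 in shEZH2. Per kilobase of exon the mean was 359 normalized counts for TFE3 and 9.51 for TFEB. TFE3 did not pass the test, with a log2 fold change of 0.11 ± 0.12 (SE), and its 95% interval lay within 1.5-fold in both directions.

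**Figure D2:**
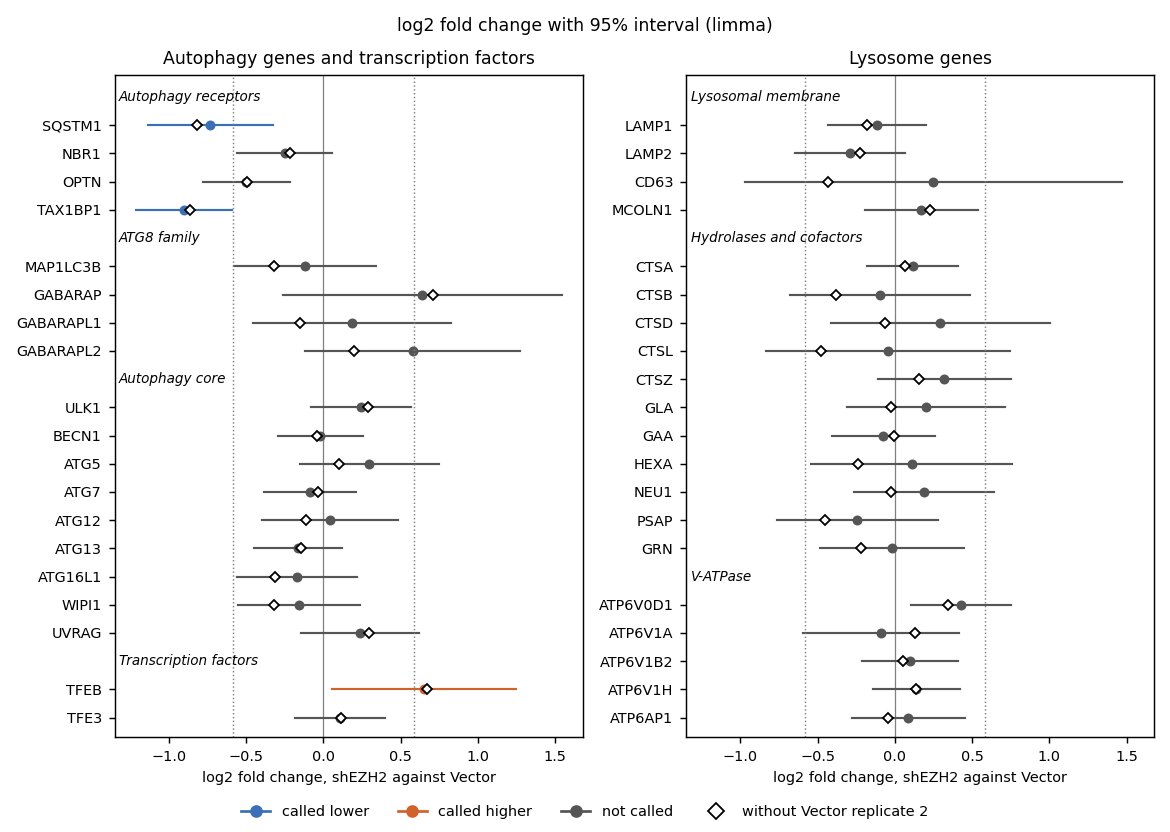
Log2 fold change of shEZH2 against Vector for each of the 39 members with its 95% limma interval, grouped by role, with open diamonds for the value without Vector replicate 2 and dotted lines at 1.5-fold in either direction. SQSTM1 (-0.73) and TAX1BP1 (-0.90) are called lower and TFEB (0.65) higher, and the 20 lysosomal genes lie between -0.29 and 0.43.

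The lysosomal membrane proteins were LAMP1 and LAMP2, which line the lysosome, the tetraspanin CD63, and MCOLN1, the calcium channel that acts upstream of TFEB. None was called. CD63 had the highest level per length of the 4 and the widest spread, at 16913, 4073 and 16827 normalized counts in Vector and 14852, 10887 and 12042 in shEZH2. Vector replicate 2 held 0.24 times the mean of the other Vector libraries, and the 95% interval of the log2 fold change ran from -0.97 to 1.47. Without that library CD63 gave -0.43 (limma adjusted p = 0.022), with both remaining Vector libraries above the shEZH2 range. LAMP2 had the lowest log2 fold change of the 20 lysosomal members, with 4833, 5448 and 4662 normalized counts in Vector against 3519, 4470 and 4267 in shEZH2. Its groups were apart, but the difference of -0.29 ± 0.15 (SE, limma adjusted p = 0.29) did not pass. LAMP1 gave -0.12 ± 0.14 and MCOLN1 0.17 ± 0.16 (SE).

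The hydrolases and cofactors comprised the cathepsins CTSA, CTSB, CTSD, CTSL and CTSZ, the glycosidases GLA, GAA, HEXA and NEU1, the saposin precursor PSAP and the progranulin gene GRN. In 0 of these 11 were the groups apart, and log2 fold changes ran from -0.24 (PSAP) to 0.32 (CTSZ) with a median of 0.11. CTSZ stood at 0.15 without Vector replicate 2. PSAP, whose products help hydrolases reach sphingolipids, had the highest level per length of all 39 members. It had 50827, 32750 and 50551 normalized counts in Vector and 38430, 34812 and 37920 in shEZH2, and only Vector replicate 2 lay below the shEZH2 libraries. Its log2 fold change was -0.24 ± 0.22 (SE) with all libraries and -0.45 (limma adjusted p = 0.004) without that library. The same was seen in CTSB, at -0.38 (adjusted p = 0.015), and CTSL, at -0.48 (adjusted p = 0.012). None of these values passed the fold threshold, and the Vector spread then came from 2 libraries that were very close. Over the settings tried, including that one, the adjusted p ran up to 0.76 for PSAP, 0.98 for CTSB and 0.99 for CTSL. Without Vector replicate 2 the median of the 11 was -0.06, and 9 of 11 values were below 0.

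The V-ATPase members were the membrane subunit ATP6V0D1, the cytosolic subunits ATP6V1A, ATP6V1B2 and ATP6V1H, and the accessory protein ATP6AP1. None was called. ATP6V1B2, part of the ATP-hydrolyzing head, had the highest level per length, at 6481, 5842 and 6482 normalized counts in Vector and 6377, 6847 and 6919 in shEZH2. Its log2 fold change was 0.10 ± 0.13 (SE). ATP6V0D1, which joins the head to the membrane ring, had 632, 532 and 626 in Vector and 797, 739 and 868 in shEZH2. All shEZH2 libraries were higher, with the largest log2 fold change of the 20 lysosomal members, 0.43 ± 0.14 (SE, limma adjusted p = 0.13). Its 95% interval ran from 0.10 to 0.75, and the value without Vector replicate 2 was 0.35 (adjusted p = 0.049). ATP6V1H was also apart, at 0.14 ± 0.12 (SE).

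Set side by side, the autophagy machinery had 0 of 17 members called higher and 2 lower, and the lysosomal genes 0 of 20 in either direction. The median log2 fold change was -0.09 for the machinery and 0.10 for the lysosomal genes, beside 0.04 for all genes tested. Without Vector replicate 2 these became -0.14, -0.04 and -0.00, so the lysosomal median then lay below 0. With a trend on exon length removed within each library they were 0.02, 0.04 and 0.02. The groups were apart in 7 of 17 machinery genes, 4 of them receptors, and in 3 of 20 lysosomal genes (15%), beside 34.8% of all genes. In the wider lists below the low lysosomal share did not hold throughout. There it was 22 of 40 genes on the list of other hydrolases (55.0%), 12 of 23 other membrane proteins (52.2%) and 5 of 19 other V-ATPase subunits (26.3%). For 8 of the 20 lysosomal genes the 95% interval lay within 1.5-fold in both directions. An interval excluded a fall as large as the threshold in 14 of the 20 and a rise as large in 12. No test between the lists was made, and the difference of their medians is a description.

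Vector replicate 2 was the lowest of the 6 libraries in 21 of 39 members and in 14 of 20 lysosomal genes, beside 5737 of all 15251. In 9 of the 11 members with exons shorter than 4000 bases it was the lowest. It held 0.41 to 0.56 times the mean of the other Vector libraries for CTSB, CTSD, CTSL and HEXA, but 1.57 times for ATP6V1A. The correlation of log10 exon length with this log2 difference was 0.38 over the 39 members and 0.32 over the 15251 genes (Pearson, a description across genes of the same 3 libraries). HEXA, listed with the longest exons of the members, went against the trend. The part of exon length in these values was not tested beyond the fit with the trend removed.

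**Figure D3:**
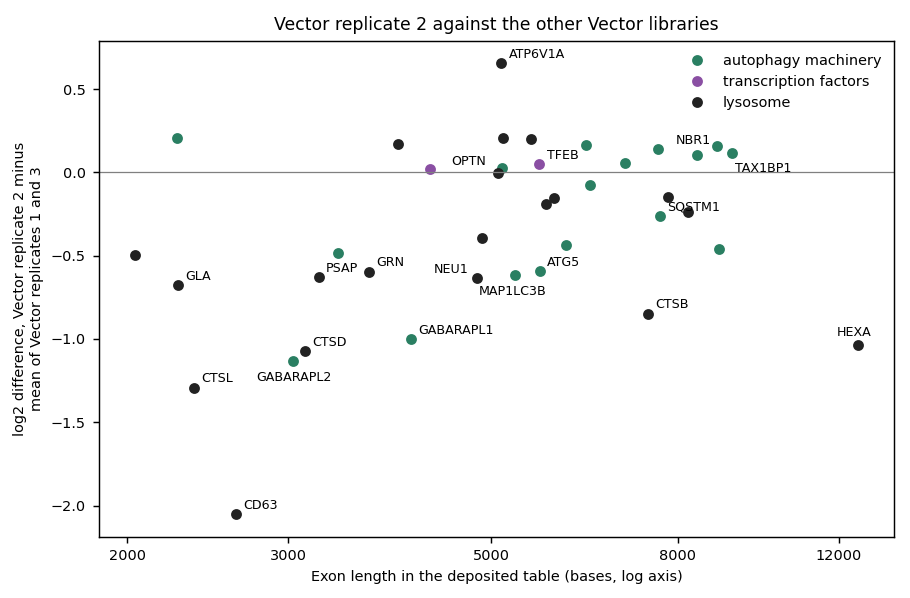
Log2 difference of Vector replicate 2 from the mean of Vector replicates 1 and 3 (vertical axis) against exon length in bases on a log axis for the 39 members, marked by pathway side. CD63, CTSL and GABARAPL2 lie far below 0 at short lengths, while SQSTM1, TAX1BP1, OPTN and NBR1 lie nearer to 0.

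Per kilobase of exon, and averaged over the 6 libraries, PSAP led with 12622 normalized counts, followed by CD63 with 4785 and SQSTM1 with 3075. In Vector replicate 2 the order of CD63 and SQSTM1 turned, at 1547 and 3385. CTSZ (1908), CTSD (1561) and CTSB (1331) came next, so 5 of the first 6 were lysosomal. MAP1LC3B (833), ATP6V1B2 (831) and LAMP2 (820) were close together, with library ranges that overlapped. TFEB (9.51) and GABARAP were at the bottom. The level of MAP1LC3B has a further limit, since MAP1LC3B2, a near copy of MAP1LC3B, had a mean of 172 normalized counts and reads of near copies may have been split or dropped.

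**Figure D4:**
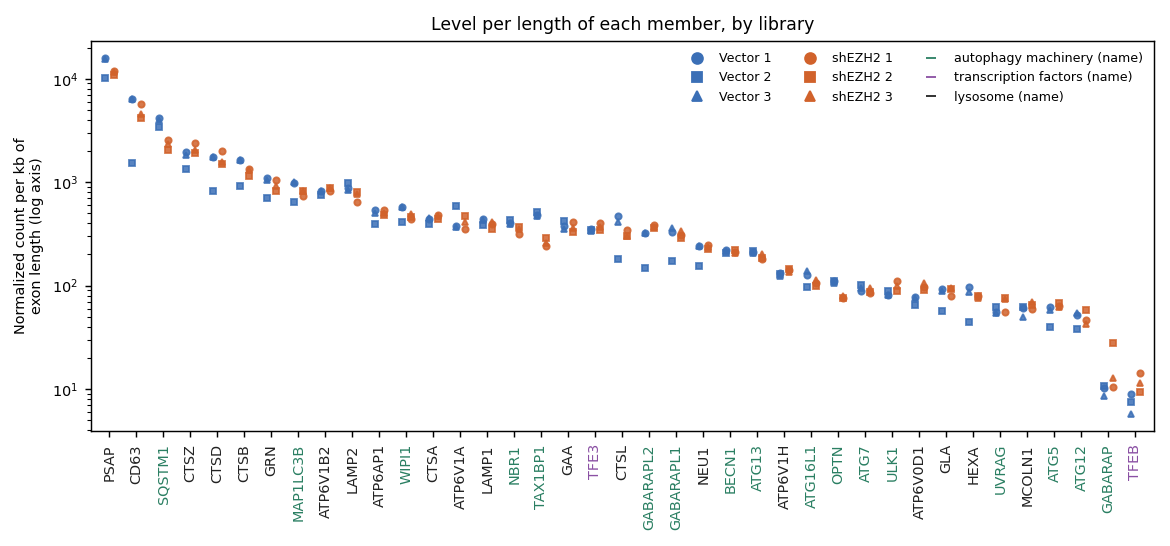
Normalized counts per kilobase of exon for the 39 members in each library, on a log axis, ordered by the mean over the 6 libraries. PSAP (12622), CD63 (4785) and SQSTM1 (3075) lead, and TFEB (9.51) is lowest.

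The element bound by TFEB, TFE3 and MITF was looked for as CACGTG, and in the longer form GTCACGTG, which contains it, on both strands of RefSeq promoters (250 bases before to 50 after each listed start, GRCh38.p14). A promoter was listed for 31 of the 39 members. CACGTG was present in 8 of 13 lysosomal genes (61.5%) and in 0 of 16 genes of the autophagy machinery, beside 12.7% of the 10428 tested genes with a listed promoter. GTCACGTG was present in 6 of the 13 (46.2%), beside 5.24% of the tested genes. The promoters of both transcription factors held neither. A match is only a run of letters in this window and shows no binding. The 8 genes with a match had log2 fold changes from -0.12 (LAMP1) to 0.43 (ATP6V0D1), and 0 of them were called. Of each, 1 window of 30 bases is printed on the strand of the gene, since every match among the members with a listed promoter was in a lysosomal gene, with the longer motif in capitals on whichever strand it was found, or CACGTG where the longer form was missing.
LAMP1: gcggcgcagctCACGTGACaagcgctgccg
MCOLN1: tgggctaccggGTCACGTGaccgaggcaca
CTSA: gcgccggagttCACGTGACtcgtacacatg
CTSD: ccggccgcgccCACGTGACcggtccgggtg
GAA: agctcccgccgGTCACGTGacccgcctctg
ATP6V0D1: gcccccttatgGTCACGTGaggcgcttgcg
CD63: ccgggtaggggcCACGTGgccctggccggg
NEU1: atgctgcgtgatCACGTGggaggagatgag

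The windows lie at chr13:113297227-113297256 (LAMP1, plus strand), chr19:7522597-7522626 (MCOLN1, plus), chr20:45891299-45891328 (CTSA, plus) and chr11:1763956-1763985 (CTSD, minus). The others are chr17:80101537-80101566 (GAA, plus), chr16:67481200-67481229 (ATP6V0D1, minus), chr12:55729172-55729201 (CD63, minus) and chr6:31862930-31862959 (NEU1, minus). LAMP1 held 6 copies of the element, more than any other member. In the wider lists below, CACGTG was counted among genes with a listed promoter. It was found in 6 of 37 other autophagy genes, 5 of 27 genes on the list of other hydrolases and 6 of 22 other membrane proteins. It was also found in 3 of 15 other V-ATPase subunits and 7 of 31 regulators.

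Other genes of the pathway were read from 5 lists made by function. Of 44 other autophagy genes tested, 1 was called higher and 4 lower, with a median log2 fold change of -0.02. CCPG1, a receptor for the endoplasmic reticulum, had 407.5 to 584.5 normalized counts in shEZH2 against 1065 to 1154 in Vector, a log2 fold change of -1.25 ± 0.17 (SE, limma adjusted p = 0.014). RB1CC1, the FIP200 scaffold of the ULK1 complex that receptors also bind, gave -1.19 ± 0.21 (SE, adjusted p = 0.028). STX17, the fusion protein of the autophagosome, gave -0.94 ± 0.24 (SE, adjusted p = 0.076). The fourth, RETREG1, is also a receptor for the endoplasmic reticulum and gave -0.92 ± 0.21 (SE, adjusted p = 0.057), and is named because the count would otherwise leave it out. TEX264, a further receptor of this kind, was called higher at 0.79 ± 0.26 (SE, adjusted p = 0.13), but was not called without Vector replicate 2 (0.48) or without shEZH2 replicate 1 (0.71). The receptors of the endoplasmic reticulum thus had calls in both directions. Receptors for other cargo on this list were not called. CALCOCO2 (0.34), BNIP3 (0.47) and FUNDC1 (0.56) had every shEZH2 library above every Vector library. Without Vector replicate 2 these stood at 0.29, 0.31 and 0.11. TOLLIP (0.20), NCOA4 (0.02) and BNIP3L (-0.01) had overlapping groups.

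The list of other hydrolases also holds lysosomal proteins that are not hydrolases, such as GM2A and NPC2. Among its 40 genes reported, PLA2G15 (0.73, limma adjusted p = 0.064) and ACP5 (0.70, adjusted p = 0.092) were called higher. PLA2G15 is the lysosomal phospholipase and ACP5 an acid phosphatase. GM2A (0.54, limma adjusted p = 0.047) was the only 1 of the 40 with an adjusted p under 0.05, but it fell short of the fold threshold. Among 23 other membrane proteins, LAPTM4A (0.91) was called higher and IGF2R (-0.78) and SLC36A1 (-0.74) lower. Of these 23, 0 had a limma adjusted p under 0.05. Among 19 other V-ATPase subunits, ATP6V0E2 (0.68, adjusted p = 0.035) was called higher and ATP6V0A2 (-0.75, adjusted p = 0.057) lower. Without Vector replicate 2, ACP5 (0.51), LAPTM4A (0.48), IGF2R (-0.47) and SLC36A1 (-0.54) were not called. LAPTM4A also lost its call without any 1 of the shEZH2 libraries (0.87 to 0.93), and IGF2R without shEZH2 replicate 1 (-0.66) or 2 (-0.79). With the length trend removed, ACP5 (0.51), IGF2R (-0.47) and ATP6V0A2 (-0.50) were not called. The medians of the hydrolase list and the V-ATPase list went from 0.19 and 0.32 with all libraries to 0.03 and -0.01 without Vector replicate 2.

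Of 33 regulators, 1 was called higher and 3 lower, with a median of 0.20 (0.05 without Vector replicate 2). TFEC, the fourth member of the MITF and TFE family and one with restricted expression, had 3.14, 3.49 and 7.13 normalized counts in Vector and 47.6, 51.1 and 39.1 in shEZH2. The log2 fold change was 3.13 ± 0.37 (SE, limma adjusted p = 0.0097) on the scale with a pseudocount of 1, which understates changes at such low levels. It reached the minimum mean of 10 only through the shEZH2 libraries, so its passing the filter and its call are not independent, and it was not tested at a minimum of 50. MITF itself, a melanocyte regulator, gave 0.23 (limma adjusted p = 0.40) and was not called. SESN3 (-0.81), FOXO1 (-0.71) and RPTOR (-0.65), which act in the nutrient signaling of mTOR and FOXO, were called lower. TFEC was the only 1 of the 33 regulators with a limma adjusted p under 0.05. Without Vector replicate 2, SESN3, FOXO1 and RPTOR stood at -0.51, -0.55 and -0.46 and were not called. SESN3 was also not called without shEZH2 replicate 1 (-0.67) or 3 (-0.75), and RPTOR with the length trend removed (-0.48).

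**Figure D5:**
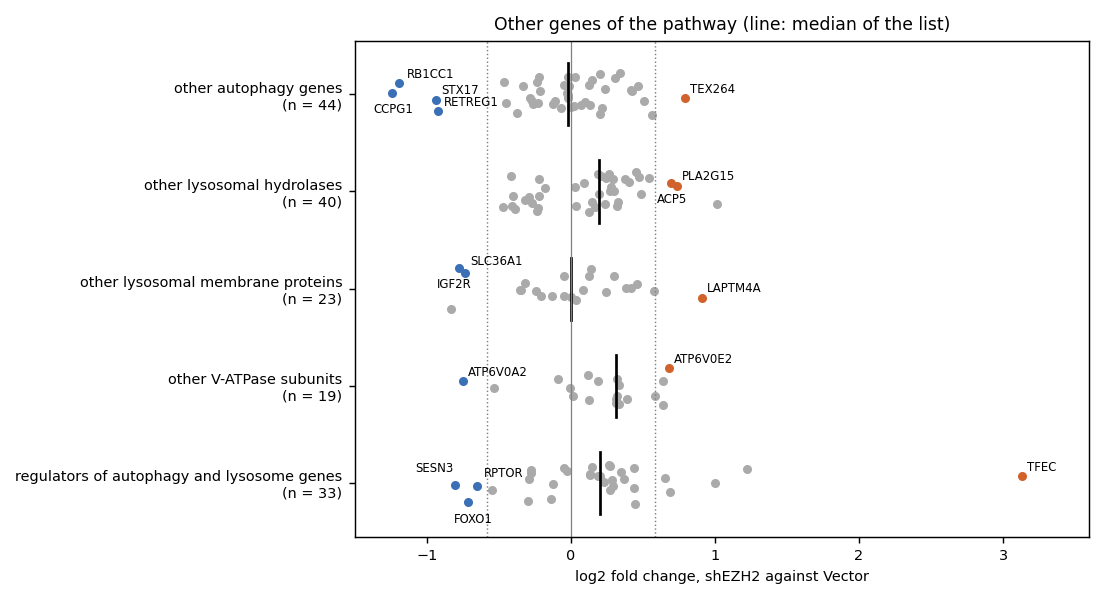
Log2 fold change of shEZH2 against Vector for each gene tested in 5 further lists of the pathway, with vertical bars at the medians, dotted lines at 1.5-fold in either direction and called genes named. CCPG1 (-1.25) and RB1CC1 (-1.19) are the lowest of the called genes plotted and TFEC (3.13) the highest.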

How the data were processed

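Poly(A) RNA was sequenced on an Illumina instrument in 3 Vector and 3 shEZH2 libraries, grouped by the labels. Gene counts were made by the authors with featureCounts (v1.5.0-p3). The deposited signal values are these counts divided by a size factor per library (DESeq2 1.20.0), referred to here as normalized counts. The aligner is not given in the sources used here. The submitters' processing notes list hg19, but the table's coordinates are GRCh38. Whole reads could be recovered for 100% of the values of every library, 13400290 to 19128939 per library. The table's group means, log2 fold changes and p-values are the authors' own comparison and were not used, and 0 columns of single libraries were left out.

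The main test was limma 3.58.1 (lmFit, then eBayes with trend, no replicate block) on log2(normalized count + 1). It was fitted to the 15251 genes that averaged 10 or more, and p-values were adjusted by Benjamini-Hochberg over all of them. A fold change is on the log2(normalized count + 1) scale, which understates changes of low genes. Levels per length use the table's exon lengths. Values in every library are given for called members and the highest member per length of each role, together with others noted after their values were seen. From each wider list at most the 3 highest and 3 lowest called genes were to be named. A few others, such as GM2A and receptors not called, were added after their values were seen. The members and lists were chosen with earlier results of these data known. On data simulated for this comparison over 15097 genes, limma called 98.0% of 98 genes changed by 1 on the log2 scale and 146 unchanged genes. The simulation gave every gene and library the same dispersion, with no deviating Vector replicate 2 and no length trend. These figures therefore do not describe how the test performs on the real libraries. Alternatives were count models fitted to the recovered reads (edgeR 4.0.16, DESeq2 1.42.0), pseudocounts of 0.1 and 5, no minimum and a mean of at least 50, TMM scaling, a replicate block, a length trend removed by loess, an adjusted p, a fold threshold of 1, and each library left out. R 4.3.3, Python 3.11.15, pandas 2.3.3, scipy 1.17.1 and matplotlib 3.10.9 were used. Promoter sequences are from RefSeq, and protein sequences were not used here. Results of 1 gene are not reported here.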

Additional observations from a re-analysis of the deposited data

How the results depend on the processing

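The count of members called lower stayed at 2 in 15 settings, SQSTM1 and TAX1BP1 in each, and became 1 with an adjusted p and 0 with a fold threshold of 1. The count called higher became 0 under both of these rules and ran from 0 to 2 with 1 library left out, GABARAPL2 being the second gene without Vector replicate 1. The median of the autophagy machinery moved to 0.020 with the length trend removed. Signs turned with that trend removed for BECN1 (0.020), ATG7 (0.046) and GLA (-0.028), and for CD63 with DESeq2 (-0.00886) and edgeR (-0.000997). With 1 library left out, signs turned in 13 uncalled members, with ranges of -0.15 to 0.39 for GABARAPL1, -0.044 to 0.0058 for BECN1, -0.11 to 0.13 for ATG12, -0.43 to 0.59 for CD63, -0.38 to 0.050 for CTSB, -0.063 to 0.47 for CTSD, -0.48 to 0.22 for CTSL, -0.026 to 0.33 for GLA, -0.24 to 0.32 for HEXA, -0.024 to 0.30 for NEU1, -0.22 to 0.10 for GRN, -0.21 to 0.13 for ATP6V1A and -0.045 to 0.18 for ATP6AP1. The cause was not tested. With an arm of 2 libraries the spread is shared with the other arm. Over all genes, 629 had an adjusted p under 0.05 with limma, 1644 with DESeq2, 679 with edgeR and 2888 without Vector replicate 2, but 4 to 31 without one of the shEZH2 libraries and 141 to 182 without another Vector library. At a mean of at least 50, GABARAP and TFEC were not tested.

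The replicate numbers paired the libraries only in part: the correlations of same-numbered deviations were 0.28, 0.22 and -0.11. The libraries numbered 1 and 2 each correlated best with the library of the same number in the other group, and those numbered 3 did not. A fit with a replicate block kept the members called at 1 higher and 2 lower, the medians at -0.09 and 0.10 and EZH2 at -1.04, and took the genes with an adjusted p under 0.05 from 629 to 424. It changed no call among the members and the other genes named from the lists.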
